A study of Mus musculus with 6 samples.

Results

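The nuclear arm of canonical Wnt signalling was followed through 9 genes in mouse embryonic stem cells with 1 disrupted allele of Srrm2. The genes were chosen by name for their place in the pathway. They are Ctnnb1, which encodes beta-catenin, the 4 TCF/LEF factors Tcf7, Tcf7l1, Tcf7l2 and Lef1, and 4 genes that respond to the pathway, Axin2, Sp5, Nkd1 and Notum. They are 9 of the 42450 genes listed in the count table, and all 9 passed the filter on low counts, which left 18905 genes for testing. Lef1 and Sp5 were higher in Srrm2+/- cells, by 1.90-fold and 1.75-fold, and Notum was lower, at 54.8% of its WT level. Ctnnb1, Axin2, Nkd1, Tcf7, Tcf7l1 and Tcf7l2 were not called.

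Total RNA was sequenced in 3 WT and 3 Srrm2+/- replicates, to ask how a lower dose of a splicing factor of nuclear speckles changes expression in these cells. WT cells were the male line E14tg2a.4. Srrm2+/- cells were its derivative CG0630, a single gene-trap line with a truncating insertion in 1 Srrm2 allele. Both were grown with serum and LIF, then in serum-free ESGRO medium with LIF before collection. The labels name no added Wnt agonist or inhibitor. The composition of the ESGRO medium was not given in the sources used here, so whether it acts on the Wnt pathway is not known from them. The study's methods give a higher passage range for WT than for Srrm2+/-, so passage, clone and genotype cannot be told apart. Replicates were thawed from separately frozen batches of each line.

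Library totals ran from 54151532 to 58499961 estimated counts in WT and from 61023103 to 69933465 in Srrm2+/-, so the Srrm2+/- libraries were deeper. Srrm2 itself was at 91.2, 98.3 and 97.7 CPM (counts scaled to a common library size after TMM) in WT and at 62.3, 56.2 and 59.6 CPM in Srrm2+/-, which fits the labels. A gene was called at an edgeR adjusted p under 0.05 over all tested genes. Of the 18905 tested genes, 25.3% were called, 13.6% higher and 11.7% lower in Srrm2+/-, and the groups did not overlap in 41.4%. The summed CPM of 3 embryonic stem cell markers was 1680 to 1733 in WT and 1405 to 1441 in Srrm2+/-. All 3 were expressed in every library, but Nanog and Sox2 were called lower in Srrm2+/- (-0.72 and -0.30 on the log2 scale), and only Pou5f1 was not called.

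In the absence of Wnt, beta-catenin is phosphorylated by a destruction complex built on Axin and APC and is degraded. A Wnt ligand at a Frizzled receptor halts this degradation, and beta-catenin enters the nucleus, where it has no DNA contact of its own and acts through TCF/LEF factors. In mouse embryonic stem cells TCF7L1 acts mainly as a repressor of pluripotency genes, TCF7 and LEF1 act mainly as activators with beta-catenin, and beta-catenin also joins cadherins at the membrane. Control of beta-catenin is largely at the protein level, so RNA levels do not measure the activity of the pathway.

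Promoter sequences of 3 of the genes are shown because they pair a called gene that holds TCF/LEF words, Sp5, with a called gene, Lef1, and an uncalled standard target, Axin2, that hold none in the same window. The windows are the 250 bases before the start in RefSeq (GRCm38.p6), read 5′ to 3′ on the gene's strand. The TCF/LEF words searched, on both strands, were CTTTGAT (the consensus form), the variant CTTTGAA, a further variant CTTTGTA, and lastly the variant CTTTGTT, and matches are in capitals. No stretch of bases matches more than 1 of them in full. The Sp5 window is chr2:70474673-70474922, plus strand, the first Lef1 window is chr3:131110047-131110296, plus strand, and the Axin2 window is chr11:108920099-108920348, plus strand.
Sp5: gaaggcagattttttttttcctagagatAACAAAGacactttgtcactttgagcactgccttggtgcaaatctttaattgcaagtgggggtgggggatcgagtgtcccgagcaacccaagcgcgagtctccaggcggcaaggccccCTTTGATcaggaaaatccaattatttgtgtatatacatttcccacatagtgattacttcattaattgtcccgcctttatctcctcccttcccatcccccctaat
Lef1: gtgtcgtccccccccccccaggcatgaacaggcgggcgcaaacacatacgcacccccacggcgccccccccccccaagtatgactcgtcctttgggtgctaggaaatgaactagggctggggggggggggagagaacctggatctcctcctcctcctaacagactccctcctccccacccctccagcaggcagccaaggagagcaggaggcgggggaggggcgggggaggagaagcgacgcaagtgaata
Axin2: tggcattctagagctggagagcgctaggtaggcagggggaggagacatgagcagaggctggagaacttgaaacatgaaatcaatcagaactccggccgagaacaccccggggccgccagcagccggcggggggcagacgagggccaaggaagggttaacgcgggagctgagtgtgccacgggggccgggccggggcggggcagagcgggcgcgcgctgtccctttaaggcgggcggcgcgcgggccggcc

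The Sp5 window held CTTTGAT on the plus strand, 104 to 98 bases before the start, and CTTTGTT on the minus strand, 222 to 216 bases before it. CTTTGAT occurred in 3.21% and at least 1 of the 4 words in 14.8% of all 32851 promoter windows of this length. Windows were matched by symbol for 8 of the 9 genes, 14 windows in all, and 3 of the 14 held a word. They were that of Sp5, 1 of Tcf7l2 and 1 further window of Lef1. GC content was 46% in the Sp5 window, 66.4% in the Lef1 window and 69.2% in the Axin2 window. A match of letters is a description and not a bound site, and words outside these windows were not searched.

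Ctnnb1 (chromosome 9, 120929216 to 120960507, plus strand, GRCm38) encodes the effector on which the whole pathway converges. Its level was 744, 702 and 747 CPM in the WT replicates and 751, 772 and 773 CPM in the Srrm2+/- replicates. Every Srrm2+/- replicate was above every WT replicate, but the lowest Srrm2+/- value and the highest WT value nearly met. The means were 731 ± 25.2 and 765 ± 12.5 CPM (n = 3 each, SD), which is 0.07 on the log2 scale (edgeR adjusted p 0.282, SE 0.04). The 95% interval of the fold, 0.98 to 1.12, bounds any rise or fall of Ctnnb1 RNA in these libraries more tightly than that of any other of the 9 genes.

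Lef1 (chromosome 3, 131110471 to 131224356, plus strand) encodes an activating partner of beta-catenin and is itself a known target of the pathway in several tissues. It was at 1.80, 1.54 and 1.81 CPM in WT and at 3.05, 3.38 and 3.37 CPM in Srrm2+/-, from 89 to 100 counts and from 208 to 233 counts per library. The groups lay far apart beside the spread within each of them. The means of 1.72 ± 0.154 and 3.27 ± 0.188 CPM (n = 3 each, SD) gave a log2 fold change of 0.93 (edgeR adjusted p 0.0014, SE 0.14), with a 95% interval of 1.53-fold to 2.36-fold. Across the alternative analyses it stayed between 0.86 and 0.98. Of the 31-base words in annotated Lef1 transcripts, 14.7% occur in transcripts of other genes, most of them in the antisense gene Gm43352, for which no count was used here. The strand setting of the counting was not given in the sources used here, so reads of Gm43352 may be part of the Lef1 values.

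Tcf7 (chromosome 11, 52252371 to 52283014, minus strand) encodes TCF7, also called TCF1, which activates targets with beta-catenin but is also made in a shorter form that lacks the beta-catenin binding region. It was at 9.42, 9.51 and 10.1 CPM in WT and at 13.8, 10.4 and 11.3 CPM in Srrm2+/-. The groups did not overlap, but Srrm2+/- replicate 1 was well above the other Srrm2+/- replicates. The log2 fold change was 0.29 (edgeR adjusted p 0.0782, SE 0.11), which missed the threshold. Without Srrm2+/- replicate 1 it was 0.17 with an edgeR adjusted p of 0.216. Without Srrm2+/- replicate 2 it was 0.38 with an edgeR adjusted p of 0.0365, the one alternative in which Tcf7 was called.

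Tcf7l1 (chromosome 6, 72626378 to 72789254, minus strand) encodes the main TCF repressor of embryonic stem cells. Its values were 3.05, 3.46 and 2.76 CPM in WT and 4.07, 3.57 and 3.78 CPM in Srrm2+/-. The groups did not overlap, though WT replicate 2 lay just below the lowest Srrm2+/- replicate. The log2 fold change of 0.30 (SE 0.13) was not called (edgeR adjusted p 0.135), and the 95% interval of the fold ran from 1.00 to 1.51.

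Tcf7l2 (chromosome 19, 55741820 to 55933654, plus strand) encodes TCF4, the main TCF of the intestinal epithelium. At 59 to 71 counts per WT library and 77 to 116 per Srrm2+/- library it was sparsely covered. WT replicates were at 1.06, 1.23 and 1.16 CPM and Srrm2+/- replicates at 1.11, 1.68 and 1.51 CPM, so the groups overlapped through Srrm2+/- replicate 1. The log2 fold change was 0.32 (edgeR adjusted p 0.301, SE 0.20), and the 95% interval of the fold, 0.91 to 1.71, leaves room for a fall as well as for a rise close to that of Lef1.

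**Figure D1:**
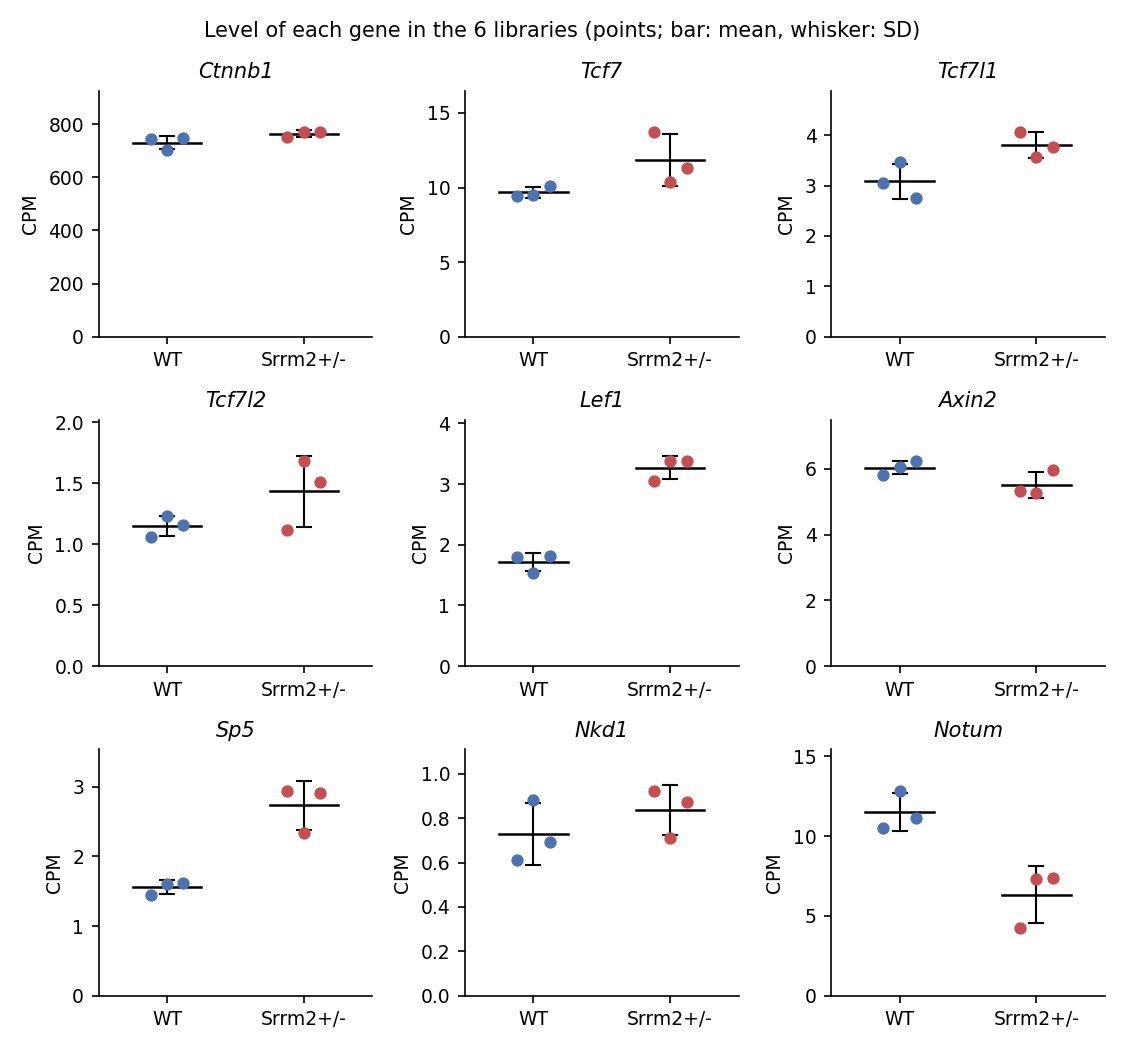
Normalized level (CPM) of each of the 9 genes in the 3 WT (blue) and 3 Srrm2+/- (red) replicates. Each panel has its own linear axis from 0, bars are means and whiskers SD. Lef1 and Sp5 show separate groups with Srrm2+/- higher, Notum with Srrm2+/- lower, and the groups of Tcf7l2, Axin2 and Nkd1 overlap.

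Levels of different genes were compared only as CPM per kb of merged exons. On that scale the TCF/LEF genes ranked Tcf7, Tcf7l1, Lef1 and Tcf7l2 in both groups. Their summed level was 4.69, 4.82 and 4.90 CPM per kb in WT and 6.75, 5.45 and 5.83 in Srrm2+/-, and the groups did not overlap. In the exact two-sided permutation test the sum gave p = 0.1, the smallest that 3 against 3 replicates can give. Tcf7 made up 76.8% ± 1.79 of this sum in WT and 74.8% ± 2.53 in Srrm2+/- (n = 3 each, SD), and Tcf7l1 made up 16.4% ± 1.96 and 16.2% ± 0.709 (n = 3 each, SD). The share of the repressor differed between the groups by less than its SD (exact permutation p = 0.9). Lef1 held 4.07% ± 0.387 in WT and 6.26% ± 1.00 in Srrm2+/- (n = 3 each, SD, exact permutation p = 0.1). Gene-level counts do not separate the long and short protein forms of these genes, and annotated lengths need not be those of the transcripts these cells make.

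**Figure D2:**
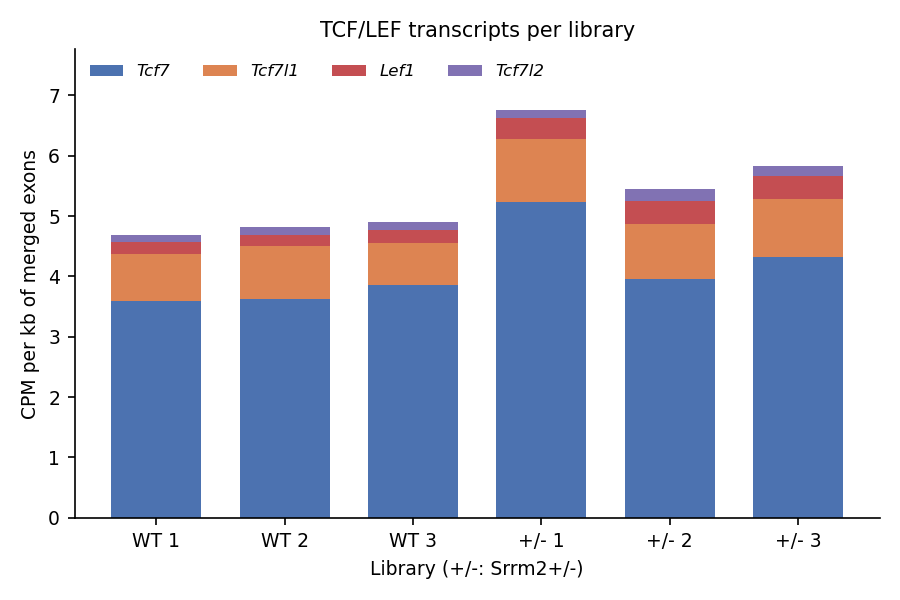
Level of the 4 TCF/LEF genes in each of the 6 libraries, stacked, in CPM per kb of merged exons. The WT sums lie between 4.69 and 4.90 and the Srrm2+/- sums between 5.45 and 6.75, and Tcf7 is the thickest layer in every library.

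Axin2 (chromosome 11, 108920349 to 108950783, plus strand) encodes a scaffold of the destruction complex and is the most widely used transcriptional readout of beta-catenin, acting as negative feedback. Its level was 5.82, 6.05 and 6.24 CPM in WT and 5.33, 5.25 and 5.96 CPM in Srrm2+/-. The groups overlapped, with Srrm2+/- replicate 3 inside the WT range. The log2 fold change of -0.13 (edgeR adjusted p 0.378, SE 0.10) was not called. The 95% interval of the fold, 0.78 to 1.06, does not reach the intervals of Lef1 and Sp5.

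Sp5 (chromosome 2, 70474923 to 70477729, plus strand) encodes a zinc finger repressor and is a direct target in embryos and stem cells, and its promoter window is printed above with 2 TCF/LEF words. It was at 1.44, 1.61 and 1.62 CPM in WT and at 2.95, 2.33 and 2.92 CPM in Srrm2+/-, from 80 to 93 and from 161 to 204 counts. No Srrm2+/- replicate came near the WT range. The means were 1.56 ± 0.101 and 2.73 ± 0.346 CPM (n = 3 each, SD), and the log2 fold change was 0.81 (edgeR adjusted p 0.0052, SE 0.16). It stayed between 0.75 and 0.91 in the alternative analyses.

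Nkd1 (chromosome 8, 88521354 to 88594884, plus strand) encodes a Dishevelled-binding feedback inhibitor. Its counts were 34, 51 and 37 in the WT libraries and 64, 49 and 54 in the others. At 0.613 to 0.882 and 0.711 to 0.925 CPM, it was the least covered of the 9 genes. The groups overlapped over most of their ranges. Its log2 fold change of 0.20 (edgeR adjusted p 0.595, SE 0.23) carries a 95% interval of 0.80-fold to 1.65-fold, which at this depth still includes a 1.5-fold rise.

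Notum (chromosome 11, 120653788 to 120661175, minus strand) encodes a secreted enzyme that removes the lipid from Wnt ligands and so inactivates them outside the cell. It was at 10.5, 12.9 and 11.1 CPM in WT and at 4.26, 7.29 and 7.39 CPM in Srrm2+/-. Every Srrm2+/- replicate was below every WT replicate, and replicate 1 was the lowest by a wide margin. The means were 11.5 ± 1.21 and 6.32 ± 1.78 CPM (n = 3 each, SD), which is -0.87 on the log2 scale (edgeR adjusted p 0.0102, SE 0.19). Without Srrm2+/- replicate 1 the change was -0.65 and was still called (edgeR adjusted p 0.0047).

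The antisense gene Notumos overlaps the start of Notum on the other strand. Of the 31-base words of Notum, 33% occur in transcripts of other genes, and 26.2% occur in those of Notumos. The kit keeps strand, but with the strand setting of the counting not known, reads of the pair may have been exchanged. Notumos was at 2.52, 2.37 and 2.13 CPM in WT and at 1.23, 1.91 and 1.60 CPM in Srrm2+/-, which is -0.56 on the log2 scale (edgeR adjusted p 0.0581, SE 0.19). With the counts of both genes summed, which no exchange between them can alter, the log2 fold change was -0.81 (edgeR adjusted p 0.00924, SE 0.18). The sum does not cover words that Notum shares with genes other than Notumos.

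**Figure D3:**
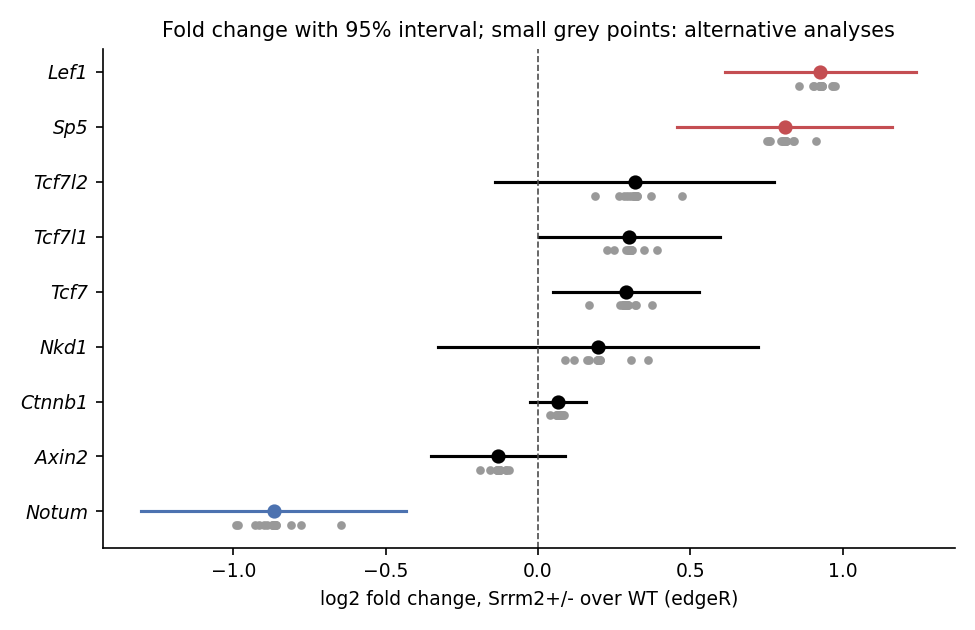
Log2 fold change of Srrm2+/- over WT for each of the 9 genes (edgeR, large points) with its 95% interval, not adjusted for the number of genes (lines). Red and blue mark genes called higher and lower, and small grey points are the alternative analyses. The intervals of Lef1 (0.93), Sp5 (0.81) and Notum (-0.87) lie clear of 0. Those of the uncalled Tcf7 and, barely, Tcf7l1 also exclude 0. For all 9 genes, called or not, every grey point lies on the same side of 0 as the large point.

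Together, 3 of the 9 genes were called, 2 higher and 1 lower, and 5 had an unadjusted p under 0.05. Every called gene has such a p, so at least 25.3% of all tested genes had one. Their full share was not computed, here or for the lists below. The median log2 fold change of the 9 genes was 0.29, against -0.0025 for all tested genes. With 25.3% of all tested genes called, 3 of 9 is a share of the same order as the background. The 4 responsive genes did not move one way, since Sp5 rose, Notum fell, and Axin2 and Nkd1 were not called. Per kb, Ctnnb1 was the most abundant of the 9 in both groups, at 141 CPM per kb in WT and 147 in Srrm2+/-. It was followed by Notum (4.78) and Tcf7 (3.69) in WT and by Tcf7 (4.51) and Notum (2.62) in Srrm2+/-. Sp5 ranked below Axin2 in WT, at 0.742 against 1.10, and above it in Srrm2+/-, at 1.30 against 1.00. Lef1, Nkd1 and Tcf7l2 were the lowest in both groups, and Nkd1 and Tcf7l2 overlapped in their values in each.

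The rest of the pathway was read from 9 lists by role, which share no gene with the 9 above and hold 117 genes. Of these, 101 were tested, 26 were higher, 14 were lower and 61 were not called. The called share was 39.6%, against 25.3% of all tested genes. The calls of each list below stand beside 13.6% of all tested genes called higher and 11.7% called lower. The lists were chosen with results of these libraries known, so these counts describe the lists and are not a test of them.

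Of 19 Wnt ligand genes, 13 were tested, 5 were higher and 0 lower, with a median log2 fold change of 0.29. Wnt7a rose from 0.0731 ± 0.0508 to 1.71 ± 0.122 CPM (n = 3 each, SD), which is 4.53 on the log2 scale (edgeR adjusted p 3.47e-05, SE 0.35). The WT libraries held 3, 2 and 7 counts of it, and without WT replicate 3 the change was 5.21 on the log2 scale, so its size rests on few reads. Wnt9a, which is used in skeletal and joint development, rose from 0.795 ± 0.147 to 3.81 ± 0.768 CPM (n = 3 each, SD). Wnt3, Wnt4, Wnt7b and Wnt9a had log2 fold changes of 2.03, 2.31, 2.22 and 2.26. Wnt3 is a canonical ligand needed for the primitive streak, and all 5 were below 1 CPM in WT. None was lower by edgeR, DESeq2 or limma voom, and 6 of the 13 had an unadjusted p under 0.05 in edgeR.

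Both genes of ligand secretion were called, in opposite directions. Wls, which carries Wnt proteins to the cell surface, rose from 4.13 ± 1.11 to 8.10 ± 0.668 CPM (n = 3 each, SD), which is 0.97 on the log2 scale (edgeR adjusted p 0.00356, SE 0.17). Porcn, the acyltransferase that attaches their lipid, fell from 12.5 ± 0.757 to 6.52 ± 0.955 CPM (n = 3 each, SD), which is -0.93 on the log2 scale (edgeR adjusted p 0.000385, SE 0.11). The RNA for the enzyme that adds the lipid and the RNA of Notum, whose enzyme removes it, were both lower. Neither protein nor the lipid on Wnt ligands was measured.

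Among 21 receptors, co-receptors and R-spondins, 19 were tested, 5 were higher and 2 lower. The Frizzled receptor genes Fzd1, Fzd2 and Fzd6 rose by 1.19, 1.19 and 0.65 on the log2 scale. Fzd2 went from 4.01 ± 0.508 to 9.14 ± 1.25 CPM (n = 3 each, SD). Fzd10 and Fzd5 had log2 fold changes of -0.89 and -0.41. Fzd5 fell from 131 ± 2.29 to 98.9 ± 3.74 CPM (n = 3 each, SD). Of 13 secreted antagonists 7 were tested, 1 was higher and 1 lower. Sfrp1, a soluble Wnt-binding protein, fell from 40.9 ± 2.91 to 13.7 ± 0.469 CPM (n = 3 each, SD), which is -1.58 on the log2 scale (edgeR adjusted p 9.65e-07, SE 0.06). Its relative Sfrp2 rose by 0.81 on the log2 scale, from 4.22 ± 0.457 to 7.40 ± 0.744 CPM (n = 3 each, SD).

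None of the 16 genes of the cytoplasmic transducers and the destruction complex was called by edgeR, and 2 had an unadjusted p under 0.05. Their log2 fold changes lay between -0.13 and 0.20 with a median of 0.03. DESeq2 called 1 of them higher, the casein kinase gene Csnk1d, and limma voom called 0, each with 3 at an unadjusted p under 0.05. Csnk1d is named here after its values were seen, at 0.18 on the log2 scale in edgeR (adjusted p 0.0512). Of the 18 nuclear cofactors, 2 were higher and 2 lower by edgeR and limma voom. DESeq2 called a further one lower, the corepressor gene Tle3, which edgeR gave at -0.22 on the log2 scale (adjusted p 0.0818) and which is named after its values were seen. The corepressor genes Tle4 and Ctbp2 rose by 0.30 and 0.33 on the log2 scale. Tle5, a short member of the TLE family, and Tbl1xr1, a corepressor exchange factor, had log2 fold changes of -0.47 and -0.14. The call of Tbl1xr1 was lost when WT replicate 1 or 3 or Srrm2+/- replicate 1 or 3 was left out, with edgeR adjusted p of 0.0533 to 0.0635.

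Of 13 further target genes, 12 were tested, 6 were higher and 0 lower, by edgeR, DESeq2 and limma voom alike. The median log2 fold change was 0.41, and 7 had an unadjusted p under 0.05 in edgeR. The uncalled gene among these 7, Cdx1, went the other way at -0.86 on the log2 scale (edgeR adjusted p 0.0955). Apcdd1 was at -0.55 and was not called either (edgeR adjusted p 0.154). Cdx1 and Apcdd1 are named after their values were seen. T (brachyury), the mesoderm factor of the primitive streak, rose from 0.886 ± 0.267 to 3.29 ± 0.531 CPM (n = 3 each, SD), which is 1.89 on the log2 scale (edgeR adjusted p 0.000513, SE 0.24). Myc, a growth regulator with many inputs beside Wnt, rose from 3.47 ± 0.530 to 9.77 ± 0.687 CPM (n = 3 each, SD), which is 1.49 on the log2 scale (edgeR adjusted p 5.42e-05, SE 0.13). Rnf43, a ubiquitin ligase that removes Frizzled, rose by 1.38 (edgeR adjusted p 0.0262, SE 0.38), from 0.352 ± 0.167 to 0.914 ± 0.243 CPM (n = 3 each, SD). Its call was lost without WT replicate 1 or 2 or Srrm2+/- replicate 1 or 2, with edgeR adjusted p of 0.0554 to 0.0994. The paralogs of 2 of the 9 genes were in this list and are named after their values were seen. Sp8 rose by 1.18 on the log2 scale (edgeR adjusted p 0.00656, SE 0.24), beside 0.81 for Sp5, and Nkd2 rose by 0.60 (edgeR adjusted p 0.0438, SE 0.19), beside 0.20 for the uncalled Nkd1.

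All 8 genes known to be repressed by TCF7L1 in embryonic stem cells were lower, with log2 fold changes from -1.97 to -0.23 and a median of -0.75. Of all tested genes 11.7% were called lower. Lefty2, a Nodal antagonist, fell from 92.8 ± 5.67 to 23.7 ± 2.25 CPM (n = 3 each, SD), which is -1.97 on the log2 scale (edgeR adjusted p 6.39e-07, SE 0.07). Tfcp2l1 fell from 341 ± 4.95 to 190 ± 8.67 CPM and Tbx3 from 45.2 ± 2.87 to 25.7 ± 2.07 CPM (n = 3 each, SD), which are factors of the naive state. Tcf7l1 itself was not called (edgeR adjusted p 0.135). Its groups did not overlap, as in 41.4% of all tested genes. The part of TCF7L1 in the levels of these 8 genes was not tested. The list also holds naive pluripotency genes with other inputs, such as LIF, and the study names some of them from these same libraries, so its direction is not independent evidence.

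Beta-catenin's other site is the adherens junction. Of 7 junction partners 6 were tested, and all 6 were higher, by 0.26 to 0.75 on the log2 scale. Of all tested genes 13.6% were called higher. Cdh2 (N-cadherin) rose from 7.02 ± 0.884 to 11.8 ± 0.861 CPM, Cdh3 (P-cadherin) from 12.1 ± 1.70 to 18.3 ± 1.57 CPM, and Jup (plakoglobin, the closest relative of beta-catenin) from 38.9 ± 0.564 to 52.2 ± 3.13 CPM (n = 3 each, SD). Ctnnb1 changed by 0.07 beside them.

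**Figure D4:**
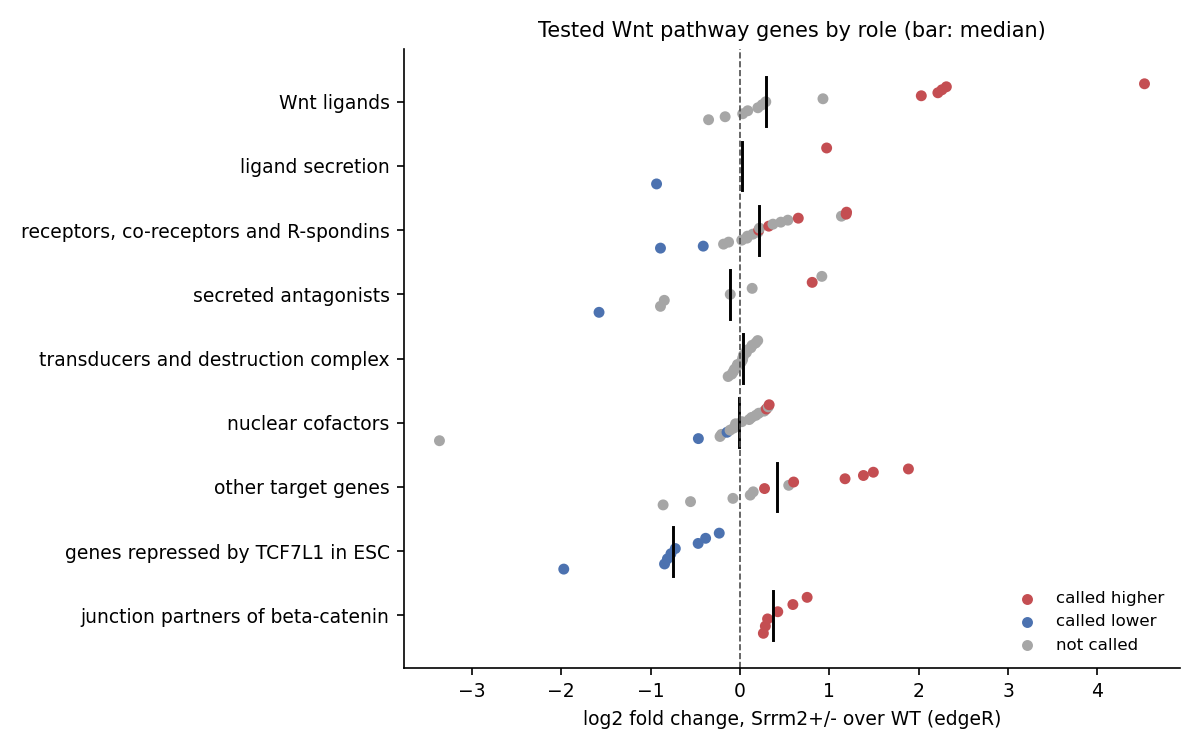
Log2 fold change of Srrm2+/- over WT (edgeR) for every tested gene of the 9 pathway lists, 1 point per gene, with the list median as a black bar. Red and blue mark genes called higher and lower. The transducers sit between -0.13 and 0.20, all 8 TCF7L1-repressed genes are below 0 and the 6 junction partners are above 0.

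Some markers of other cell types differed with genotype in the same libraries. The summed level of 7 primitive streak and mesoderm markers was 2.30 to 3.32 CPM in WT and 5.22 to 5.86 CPM in Srrm2+/-. That separation rests on T, which is also in the target list above. Without T the sum was 1.70 to 2.20 CPM in WT and 1.99 to 2.45 CPM in Srrm2+/-, and the groups overlapped. By edgeR, 2 of 5 tested genes were higher, T and Eomes (0.79 on the log2 scale, edgeR adjusted p 0.0387). Limma voom also called 2 of the 5 higher, but DESeq2 called only 1, which was T. Gsc went the other way at -0.998 on the log2 scale and was not called (edgeR adjusted p 0.141). Lef1 and Sp5 are known to be expressed in the streak as well.

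The sum of 6 neural markers was 88.6 to 91.8 CPM in WT and 131 to 138 CPM in Srrm2+/-, and its direction was set by Nes alone. Nes, an intermediate filament gene of neural and other progenitors, rose from 13.2 to 83.6 CPM, while Tubb3 and Pax6 fell by 0.76 and 0.30 on the log2 scale. Without Nes the sum was lower in Srrm2+/-, at 50.1 to 53.2 CPM against 74.7 to 80.6 CPM. The sum of 6 fibroblast markers was 3.10 to 3.29 CPM in WT and 6.20 to 9.35 CPM in Srrm2+/-. Of its 4 tested genes 3 were higher, the collagen genes Col1a1, Col1a2 and Col3a1 (1.13, 3.89 and 2.28 on the log2 scale). The other tested gene, Thy1, went the other way at -0.70 on the log2 scale and was not called (edgeR adjusted p 0.0939). Without Col1a2 the sum was 2.88 to 3.03 and 3.76 to 5.51 CPM. Sums with a gene left out were computed after the values were seen.

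Of 6 primitive endoderm markers 4 were tested and 0 were called by edgeR, with 1 at an unadjusted p under 0.05, and their sum was 1.98 to 2.15 CPM in WT and 1.59 to 2.06 CPM in Srrm2+/-. No marker of these lists was at 0 in all 6 libraries, but the fibroblast marker Dcn and the neural marker Neurog2 were at 0 in every WT library. The part of such cells in the levels of Lef1, Sp5 and Notum was not tested, and in bulk RNA a change in the number of cells that express a gene cannot be told from a change in RNA per cell.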

How the data were processed

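Total RNA libraries (TruSeq Stranded, 75-base paired reads) of 3 WT and 3 Srrm2+/- replicates were used, with groups and numbers from the sample titles. The authors quantified reads with Kallisto 0.46.1 against a GENCODE mouse transcriptome and deposited raw estimated counts for each gene. Reads that match several transcripts are divided among them by Kallisto. Estimated counts were rounded to whole numbers. Symbols and positions came from GENCODE release M21 (GRCm38), which matched 42156 of 42450 identifiers. Genes past filterByExpr (minimum count 10, minimum total 15) were tested with edgeR 4.0.16 (TMM, glmQLFit and glmQLFTest, two-sided, genotype as the sole term), with Benjamini-Hochberg adjustment over all tested genes. The SE is the log2 fold change divided by the square root of F. P-values measure the spread between these 3 replicates per line. Counting error alone limits genes of few counts. Alternatives used DESeq2 1.42.0, limma 3.58.1 (voom) and other filters, scalings and sets of libraries, and the sum of Notum and Notumos and the marker sums with a gene left out were added after seeing the data. The fits were tested on simulated data. The 9 genes and the lists were chosen with earlier results of these data known. Of each list the text names the called genes with the largest changes, up to 3 per direction, every called gene where 5 or fewer were called, and, for Axin2 and Tcf7l1, the 5 genes (mean log2 CPM of at least 1) with the highest Pearson r over the 6 libraries.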

Additional observations from a re-analysis of the deposited data

How the results depend on the processing

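Lef1, Sp5 and Notum were called in every alternative that set no limit on size, with log2 fold changes of 0.86 to 0.98, 0.75 to 0.91 and -0.99 to -0.65. When a call also required a change of 1 or more on the log2 scale in either direction, 0 of the 9 genes, 13 of the 101 tested pathway genes (11 higher and 2 lower) and 1153 of all genes (813 higher and 340 lower) were called. Leaving out 1 library in turn gave 3 to 4 of the 9 genes, 38 to 41 pathway genes and 3515 to 4122 of all genes. With the replicate number as a replicate block, 3 of the 9 genes, 42 pathway genes and 4166 of all genes were called (2281 higher and 1885 lower), and the call of Rnf43 was lost (adjusted p 0.0708). Same-numbered libraries did not deviate together over the genes compared as a whole (correlations of -0.0407, 0.0986 and 0.0354). Whether they share a thaw or a processing day was not given in the sources used here, and an effect on some genes was not tested. Scaling moved the median of all genes by less than 0.01. Nkd1 has no value where a gene had to reach 1 CPM throughout a group. Depth limits Nkd1 and Tcf7l2 most, at 34 to 64 and 59 to 116 counts per library.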

Other observations

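Across the 6 libraries, the levels most like that of Axin2 were those of Ppp2r3c (Pearson r 0.994), Rpl5 (0.992), Hsd17b14 (0.987), Tsta3 (0.985) and Tfb2m (0.976), out of 11960 genes compared, of which 21 were above 0.95. For Tcf7l1 they were E2f7 (0.991), Cracr2b (0.987), 0610010K14Rik (0.982), Parp6 (0.981) and Sgip1 (0.979), with 36 above 0.95. The points are 6 libraries of 2 lines, the genes are those ranked highest, and the values describe these libraries only.

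Bcl9l, which encodes a coactivator that binds beta-catenin, was uneven within WT. Its counts were 79, 10 and 106 in WT and 23, 0 and 0 in Srrm2+/-, and the groups overlapped. It was not called by edgeR, DESeq2 or limma voom, and edgeR gave -3.36 on the log2 scale (adjusted p 0.0595, SE 1.13). The gene is named after its values were seen.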
